A study of Mus musculus with 12 samples.

Results

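The MHC class II genes described here are H2-Aa, H2-Ab1, H2-Eb1, H2-DMa and Cd74, 5 of the 48526 genes listed in the deposited tables, taken by gene name. They were followed in 12 cortex libraries from untreated C57Bl/6 mice, with 3 biological replicates in each of 4 groups: TAU58/2 transgenic mice of 10 months, non-transgenic controls of 10 months, TAU58/2 transgenic mice of 3 months and non-transgenic controls of 3 months. The TAU58/2 transgene encodes human P301S tau and is driven in neurons by a mouse Thy1 promoter. All 4 groups share the strain, and none received a treatment. RNA came from whole cortex, so fewer cells of a type and less RNA per cell cannot be told apart in any value below. Values are FPKM, fragments scaled to transcript length and to library size, and a library is named by its age, its label and its replicate number.

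MHC class II molecules are pairs of an alpha and a beta chain that carry peptides from engulfed proteins to the surface of antigen-presenting cells, where CD4 T cells read them. H2-Aa and H2-Ab1 encode the alpha and beta chain of the I-A molecule. H2-Eb1 encodes the beta chain of I-E, whose alpha chain is not expressed in the C57BL/6 strain. Cd74 encodes the invariant chain, which blocks the peptide groove until the molecule reaches the endosome, and H2-DMa encodes a chain of H2-DM, which helps to exchange the last piece of the invariant chain for a peptide. In the healthy brain most class II protein is found on macrophages and dendritic cells of the meninges, vessels and choroid plexus. Microglia hold little of it until they are activated.

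H2-DMa, H2-Ab1, H2-Aa and H2-Eb1 lie together on mouse chromosome 17 in the GRCm38 annotation. H2-DMa (ENSMUSG00000037649) spans 34119541 to 34139101 on the plus strand. H2-Ab1 (ENSMUSG00000073421) spans 34257689 to 34269419 on the plus strand, H2-Aa (ENSMUSG00000036594) 34282744 to 34287823 on the minus strand, and H2-Eb1 (ENSMUSG00000060586) 34305867 to 34316674 on the plus strand. Cd74 (ENSMUSG00000024610) is on another chromosome. All 5 are protein-coding. Neither H2-Aa nor H2-Ab1 overlaps another annotated gene. H2-Eb1 overlaps an antisense gene. H2-DMa overlaps 4 genes, among them Brd2, a bromodomain protein gene on the opposite strand, which stood at between 7.40 and 21.9 FPKM. The libraries were strand-specific per the labels' protocols, but whether strand was used in counting is not given in the sources used here.

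Class II genes are switched on through a promoter module in which the RFX complex binds the X box, CREB binds an adjoining element and NF-Y binds the Y box, and the coactivator CIITA joins them. The start-site windows of H2-Aa, H2-Eb1 and H2-DMa are shown from RefSeq's promoter table (GRCm38.p6), each running from 250 bases before to 50 bases after the start. No window is shown for H2-Ab1 or Cd74. The windows are given as a description, and their bearing on the levels across libraries was not tested. Capitals mark matches on either strand to ATTGG, the core of the Y box, to AGNAAC followed by any 2 bases and ATG, an X box core, or to TGACGTCA, the element that CREB binds. The X box letters were chosen after these windows had been read, and no 2 matches overlap. The windows are chr17:34287774-34288073 on the minus strand for H2-Aa, chr17:34305617-34305916 on the plus strand for H2-Eb1 and chr17:34122582-34122881 on the plus strand for the first of the 2 listed H2-DMa starts.
H2-Aa: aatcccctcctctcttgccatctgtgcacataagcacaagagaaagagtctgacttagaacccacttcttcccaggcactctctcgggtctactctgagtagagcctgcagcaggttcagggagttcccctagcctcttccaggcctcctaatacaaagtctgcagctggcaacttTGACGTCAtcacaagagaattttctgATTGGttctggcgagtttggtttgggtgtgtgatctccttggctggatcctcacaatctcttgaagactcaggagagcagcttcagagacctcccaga
H2-Eb1: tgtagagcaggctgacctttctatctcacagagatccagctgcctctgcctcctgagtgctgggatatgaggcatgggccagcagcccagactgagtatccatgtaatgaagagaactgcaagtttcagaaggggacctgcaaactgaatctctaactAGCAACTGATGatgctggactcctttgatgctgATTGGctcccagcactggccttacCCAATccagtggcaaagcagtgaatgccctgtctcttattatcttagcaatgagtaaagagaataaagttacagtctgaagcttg
H2-DMa: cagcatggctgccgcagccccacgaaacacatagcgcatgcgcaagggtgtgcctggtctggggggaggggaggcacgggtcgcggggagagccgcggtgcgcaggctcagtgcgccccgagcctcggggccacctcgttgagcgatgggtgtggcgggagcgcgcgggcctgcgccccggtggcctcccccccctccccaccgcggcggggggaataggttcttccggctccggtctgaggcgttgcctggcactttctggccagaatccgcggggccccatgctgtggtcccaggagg
In H2-Eb1 the X box match lay 92 bases before the start site and ended 22 bases short of the nearest ATTGG. H2-Aa held no such X box match, and its TGACGTCA, 74 bases before the start site, ended 18 bases short of its ATTGG. The first H2-DMa window held none of the 3 motifs, and the second (chr17:34125268-34125567) held only ATTGG. Both H2-DMa windows lie inside the annotated gene, which begins at 34119541, and whether either serves as its class II promoter was not tested. Among 32817 windows of the same length, 37.4% held ATTGG, 0.893% the X box letters, 1.79% TGACGTCA, and 0.396% both the X box letters and ATTGG. Of the other class II chains, H2-Eb2, H2-DMb1 and H2-Ob held both, with 22, 23 and 20 bases between them. Because the X box letters were chosen after class II windows had been read, X box matches in this family were partly fixed by that choice. Setting them beside the share of all windows is therefore no test. A match describes letters only and says nothing of binding.

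Total FPKM of a library lay between 125933 and 158077, and 12828 to 13914 genes were above 0. Sequencing depth is unknown, no interval for counting error could be computed, and a gene without fragments is described only as listed at 0. Mapt, the mouse tau gene, was at 43.3 to 47.6 FPKM in the 3-month transgenic and 6.64 to 12.0 FPKM in the 3-month control libraries. At 10 months it was at 42.6, 12.4 and 3.31 FPKM in the transgenic and 42.7, 8.13 and 9.08 FPKM in the control libraries, so the genotype labels of that age were not borne out by this gene, and every 10-month genotype direction below rests on the labels alone. The 10-month library labelled transgenic 1 stood apart through 11230 FPKM of Gh and 1482 FPKM of Prl, the growth hormone and prolactin of the pituitary gland, against at most 37.4 and 10.0 FPKM in any other library. Results that rest on it are given with and without it.

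The classical class II genes were at or near 0 in the cortex at 3 months and were highest in the 10-month library labelled transgenic 1, with lower values in some other 10-month libraries. H2-Aa was listed at 4.10, 0.586 and 0.672 FPKM in 10-month transgenic replicates 1 to 3, and at 0, 1.06 and 0 FPKM in 10-month control replicates 1 to 3. It was listed at 0 in all 3 transgenic and all 3 control libraries of 3 months. Thus 4 of 6 libraries of 10 months and 0 of 6 libraries of 3 months listed the gene, and at 10 months the genotype groups overlapped, with control 2 above transgenic 2 and 3.

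H2-Ab1, which encodes the partner chain, had 2.88, 0.489 and 0.799 FPKM in the 10-month transgenic and 0, 0.556 and 0.238 FPKM in the 10-month control libraries. At 3 months it had 0.101, 0.0671 and 0.119 FPKM in transgenic libraries and was listed at 0 in the 3 controls. The 3-month values do not overlap between genotypes, but none of them exceeds 0.119 FPKM.

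H2-Eb1 had 5.82, 0 and 1.72 FPKM in the 10-month transgenic and 0, 1.95 and 0 FPKM in the 10-month control libraries, and like H2-Aa it was listed at 0 in all 6 libraries of 3 months. Only 3 of the 12 libraries therefore listed it. They were the 3 in which H2-Aa was highest.

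Cd74 had 7.17, 0 and 1.59 FPKM in the 10-month transgenic and 0, 1.83 and 0.602 FPKM in the 10-month control libraries. At 3 months it had 0.900, 0.144 and 0 FPKM in transgenic and 0.287, 0 and 0.242 FPKM in control libraries. The 3 highest libraries were again 10-month transgenic 1, 10-month control 2 and 10-month transgenic 3, so the ranking did not follow the genotype labels.

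H2-DMa alone was listed above 0 in all 12 libraries. It had 4.30, 0.755 and 0.896 FPKM in the 10-month transgenic and 1.19, 0.646 and 0.849 FPKM in the 10-month control libraries. At 3 months it had 0.989, 0.913 and 2.47 FPKM in transgenic and 3.63, 1.05 and 0.371 FPKM in control libraries. Its 3 highest libraries were in 3 different groups.

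**Figure D1:**
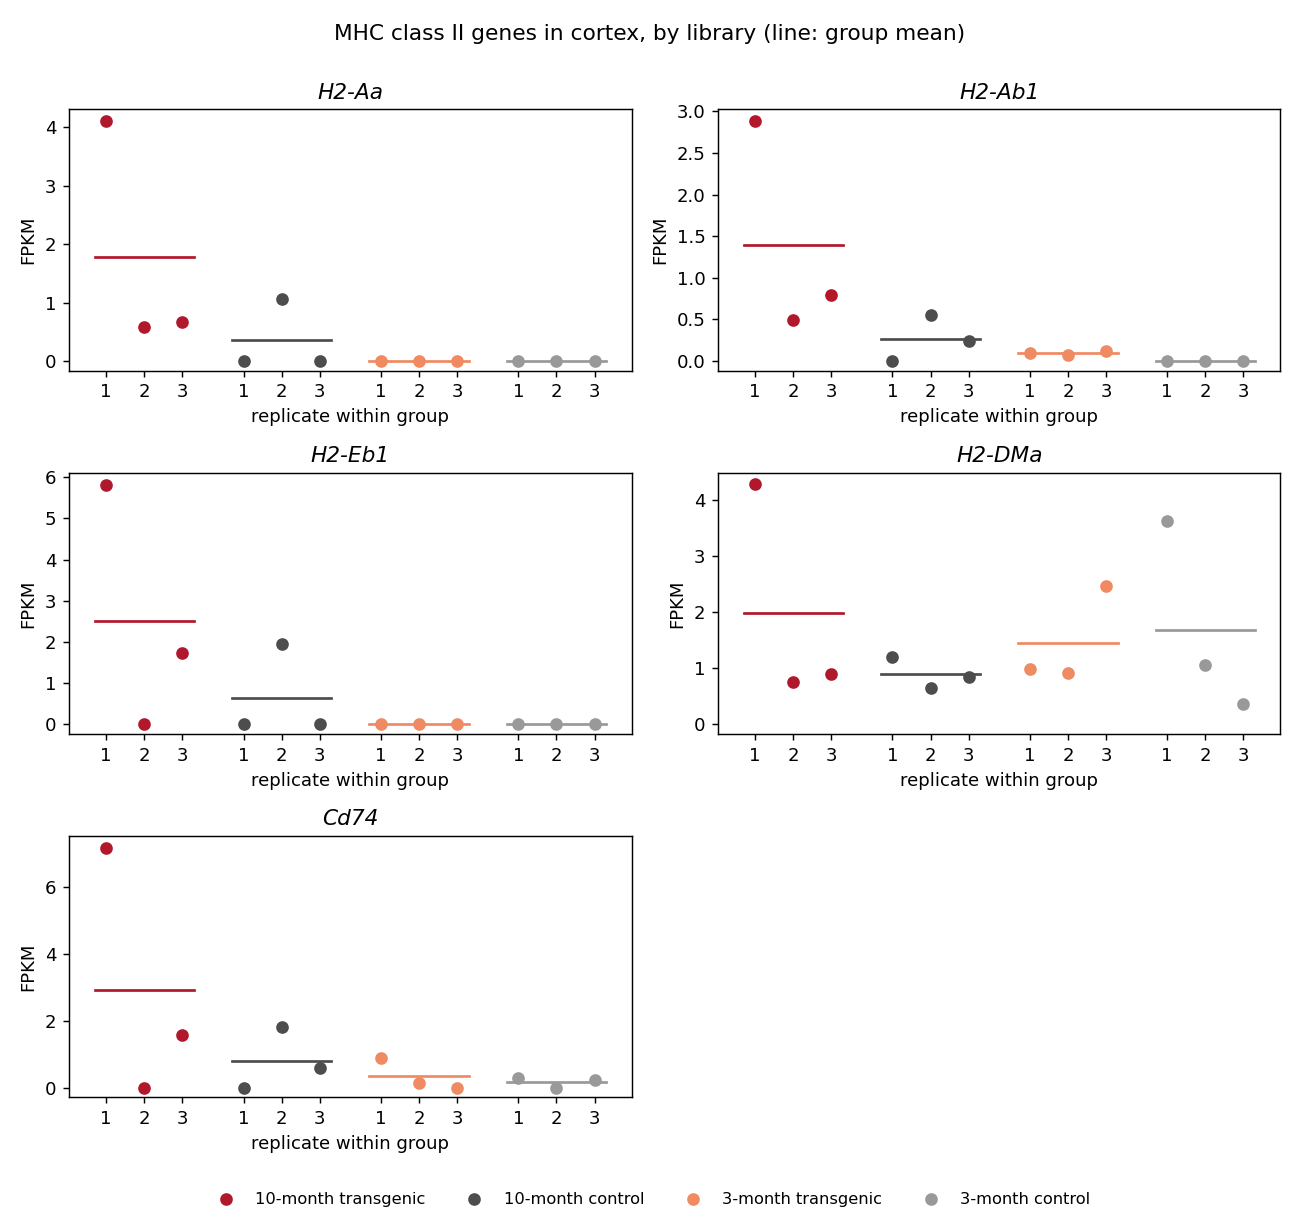
FPKM of H2-Aa, H2-Ab1, H2-Eb1, H2-DMa and Cd74 in each of the 12 libraries, with a line at the mean of each group of 3. In H2-Aa, H2-Ab1, H2-Eb1 and Cd74 the 10-month transgenic 1 library is the highest point (4.10, 2.88, 5.82 and 7.17 FPKM) and the 3-month libraries sit at or below 0.900 FPKM, whereas H2-DMa also has high points of 2.47 and 3.63 FPKM at 3 months.

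By group mean, H2-Aa, H2-Ab1, H2-Eb1 and Cd74 were ordered alike: highest in 10-month transgenic libraries, then 10-month control, and lowest in the 3-month groups. Cd74 averaged 2.92 ± 3.77, 0.811 ± 0.933, 0.348 ± 0.483 and 0.176 ± 0.154 FPKM in the 10-month transgenic, 10-month control, 3-month transgenic and 3-month control libraries (SD, n = 3 each). H2-Ab1 averaged 1.39 ± 1.3, 0.264 ± 0.279 and 0.0958 ± 0.0264 FPKM in the first 3 of these and was listed at 0 in the last. For H2-DMa the order was 10-month transgenic (1.98 ± 2.01), 3-month control (1.69 ± 1.72), 3-month transgenic (1.46 ± 0.879) and 10-month control (0.897 ± 0.277 FPKM). Every pair of neighbours in these orders had overlapping ranges, except the 3-month transgenic and control libraries for H2-Ab1. Without the 10-month transgenic 1 library the mean of the 2 remaining libraries of that group was 0.629 FPKM for H2-Aa, 0.644 for H2-Ab1, 0.862 for H2-Eb1, 0.795 for Cd74 and 0.825 for H2-DMa, and the last 2 of these lay below the 10-month control means.

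The comparison of transgenic with control cortex at 10 months asks whether class II RNA levels differ between the genotype labels in older animals. The 9846 genes whose mean reached 1 FPKM in any group were tested with limma on log2(FPKM + 0.1), and a gene was called at a Benjamini-Hochberg adjusted p under 0.05 over all of them. None of the 5 class II genes was called, against 0.0102% of all genes (1 of 9846). All 5 were among the genes tested, but H2-Aa, H2-Ab1, H2-Eb1 and Cd74 only through their 10-month transgenic mean, so that their being higher there is partly fixed by the filter. The log2 fold change of H2-Aa was 2.53 (SE 1.11, limma adjusted p = 0.969, exact permutation p = 0.3, two-sided) and that of H2-Ab1 2.05 (SE 0.90, limma adjusted p = 0.969, exact permutation p = 0.2). H2-Eb1 stood at 1.91 (SE 1.57), Cd74 at 1.06 (SE 1.67) and H2-DMa at 0.68 (SE 0.86), with limma adjusted p of 0.969, 0.992 and 0.972. With a pseudocount of 1 the log2 fold changes were 0.91 for H2-Aa, 0.81 for H2-Ab1, 0.88 for H2-Eb1, 0.74 for Cd74 and 0.47 for H2-DMa. At an unadjusted limma p under 0.05 there were 2 of the 5, H2-Aa and H2-Ab1, against 4.4% of all genes. The spread behind these p includes the 3-month libraries, in which H2-Aa was listed at 0 throughout. With limma fitted to only the groups compared, the unadjusted p was 0.118 for H2-Aa and 0.110 for H2-Ab1. The groups overlapped for each of the 5, whereas 4.37% of all genes were higher, and 3.89% lower, in every transgenic than in every control library. Without the 10-month transgenic 1 library, and with the same genes tested, the log2 fold change was 1.69 for H2-Aa, 1.37 for H2-Ab1 and 0.64 for H2-Eb1, and it turned to -0.32 for Cd74 and to -0.075 for H2-DMa.

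In the authors' deposited table for 10 months the fold changes of transgenic over control ran from 1.60 for H2-DMa to 2.24 for H2-Aa. The same table gives p-values between 0.119 for H2-Ab1 and 0.446 for Cd74, and a q-value of 0.854 for each of the 5 genes.

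At 3 months the same comparison called 0 of the 5 genes with limma, against 0.0406% of all genes, and 0 of the 5 had an unadjusted p under 0.05, against 3.39%. No fold change exists for H2-Aa and H2-Eb1, both listed at 0 throughout that age, so neither of them could have been called in this comparison. For H2-Ab1 the fitted log2 difference was 0.96 (SE 0.90, limma adjusted p = 1). Its groups did not overlap, as was so for 4.44% of all genes in that direction and 3.54% in the other. Its exact permutation p was 0.1, the smallest that 3 against 3 libraries allow, while the authors' deposited table gives p = 0.00720 and q = 0.904 with a fold change of 1.10. The levels behind this difference were at most 0.119 FPKM, and with a pseudocount of 1 in place of 0.1 the log2 difference was 0.13, beside a log2 fold change of 0.14 in the authors' deposited table. Cd74 stood at 0.29 (SE 1.67) and H2-DMa at 0.16 (SE 0.86), and the mean FPKM of H2-DMa, 1.46 in transgenic and 1.69 in control libraries, was ordered the other way. The age by genotype interaction, which tests whether the genotype difference changed between the ages, called 0 of the 5, against 0.0508% of all genes. Its values, 10 minus 3 months, ran from 0.51 (SE 1.22) for H2-DMa to 2.53 (SE 1.57) for H2-Aa, with a limma adjusted p of at least 0.987 for each gene, and 0 of the 5 had an unadjusted p under 0.05, against 3.32%.

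**Figure D2:**
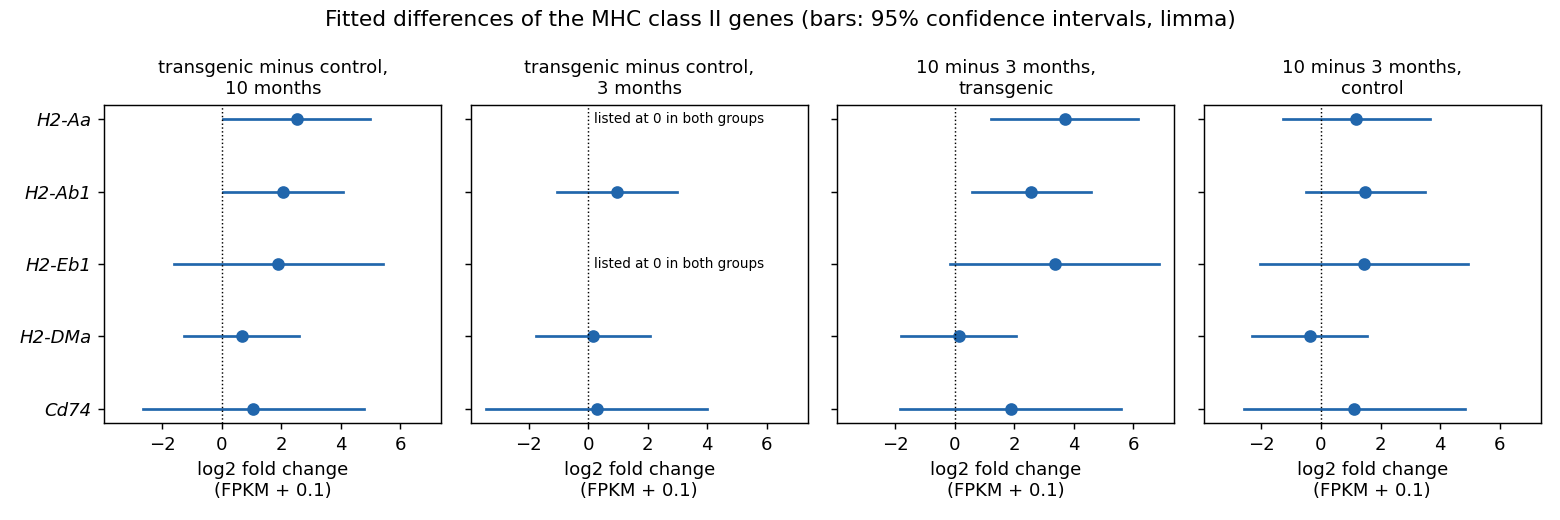
Fitted log2 fold changes (points) with 95% confidence intervals (bars) of the 5 class II genes for transgenic minus control at 10 and at 3 months and for 10 minus 3 months in each genotype. The intervals of H2-Aa and H2-Ab1 lie above 0 in the transgenic age comparison (1.24 to 6.17 and 0.57 to 4.59) and just above it in the 10-month genotype comparison, none of which passed the adjustment over all genes. Each interval uses the spread over all libraries, which include the 3-month ones where H2-Aa was listed at 0.

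H2-Aa, H2-Ab1, H2-Eb1 and Cd74 had higher means at 10 than at 3 months under both labels, although no call was reached. In transgenic libraries the 10 minus 3 months log2 fold change was 3.71 (SE 1.11) for H2-Aa, 3.36 (SE 1.57) for H2-Eb1, 2.58 (SE 0.90) for H2-Ab1 and 1.89 (SE 1.67) for Cd74. It was 0.13 (SE 0.86) for H2-DMa. These sizes depend on the pseudocount: with 1 in place of 0.1 they were 1.25 for H2-Aa, 1.40 for H2-Eb1, 0.99 for H2-Ab1 and 1.09 for Cd74. Limma called 0 of the 5, against 0.0203% of all genes, with adjusted p of 0.974 or more. H2-Aa and H2-Ab1 had an unadjusted p under 0.05, against 4.31% of all genes. Both were tested only because of their 10-month transgenic mean, so that being higher there is partly fixed by the filter, and neither this count nor the next is support for an age difference. The same 2 genes did not overlap, every 10-month value being above every 3-month one, against 5.78% of all genes in that direction and 3.65% in the other, with an exact permutation p of 0.1 each.

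In control libraries the corresponding log2 fold changes were 1.18 (SE 1.11) for H2-Aa, 1.45 (SE 1.57) for H2-Eb1, 1.49 (SE 0.90) for H2-Ab1, 1.12 (SE 1.67) for Cd74 and -0.38 (SE 0.86) for H2-DMa. Limma called 0 of the 5, against 0.0305% of all genes, and 0 of the 5 had an unadjusted p under 0.05, against 4.19%. The ages overlapped in controls for each of the 5, whereas 6.8% of all genes were higher, and 3.25% lower, in every 10-month library. H2-Aa and H2-Eb1 rest on 10-month control 2 alone here, and without it both were at 0 in every control library of either age. Whether the age effect differed between the labels is the interaction given above, which was not called.

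Taking both labels together, a comparison added after the values were seen, H2-Ab1 had a median of 0.522 FPKM at 10 months and 0.0336 FPKM at 3 months (6 libraries each). Its log2 difference was 2.04 (SE 0.64), with an exact permutation p of 0.0195 and a limma adjusted p of 0.935. H2-Aa stood at 2.44 (SE 0.78) with an exact permutation p of 0.0606, H2-Eb1 at 2.41 (SE 1.11) with an exact p of 0.182, Cd74 at 1.5 (SE 1.18) with an exact p of 0.223 and H2-DMa at -0.12 (SE 0.61) with an exact p of 0.833. Without the 10-month transgenic 1 library the exact permutation p of H2-Ab1 was 0.0260. The same test gave 0.0606 for H2-Aa, 0.182 for H2-Eb1, 0.448 for Cd74 and 0.3355 for H2-DMa. None of the exact permutation p was adjusted for the number of tests. In all, 30 permutation tests of a single gene were run: 20 of 3 against 3 libraries, 5 of 6 against 6, and 5 of 5 against 6 without 10-month transgenic 1. Limma called 0 of the 5, against 0.0813% of all genes, and 2 of the 5 (H2-Aa and H2-Ab1) had an unadjusted p under 0.05, against 4.4%, with the same limit from the filter. The ages overlapped for each of the 5, whereas 0.284% of all genes were higher, and 0.0813% lower, in every 10-month library. Of the 9846 genes, 10 were listed at 0 in all 3-month libraries and above 0 in at least 4 of the 10-month ones, among them H2-Aa, and 3 showed the opposite pattern. The limit of 4 equals the number of libraries that listed H2-Aa itself, and H2-Eb1, listed in 3, falls outside it. H2-Aa was also tested only through its 10-month transgenic mean, so this count is no support for an age difference. Since each age has its own table, an age difference cannot be told apart from a difference between the tables.

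The 5 genes fell into 2 patterns across libraries. H2-Aa, H2-Ab1, H2-Eb1 and Cd74 varied alike: over the 12 libraries the Pearson r of their log2 values lay between 0.680 (H2-Aa with Cd74) and 0.928 (H2-Aa with H2-Ab1), and without the 10-month transgenic 1 library between 0.442 and 0.864 (11 libraries). H2-DMa had r between 0.195 and 0.238 with each of the other 4, and between -0.334 and -0.251 without that library. These values are descriptions. The points share the libraries in which several of the genes were listed at 0.

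The 3 libraries highest in H2-DMa were also the 3 highest in Ttr and Kcne2, which are 2 of the 6 genes of a list for the choroid plexus, the tissue that secretes cerebrospinal fluid. The other 4 genes of the list were not all high there. Ttr encodes transthyretin, the chief secreted protein of that tissue. Ttr stood at 439 FPKM in 10-month transgenic 1, 300.4 in 3-month transgenic 3 and 728 in 3-month control 1, and at most 63.5 FPKM in the other 9 libraries. These were the 3 highest libraries of H2-DMa, at 4.30, 2.47 and 3.63 FPKM, against at most 1.19 FPKM elsewhere. Kcne2, a potassium channel subunit of the choroid plexus epithelium, had 1.15, 1.13 and 0.903 FPKM in the same 3 libraries and at most 0.0376 FPKM in any other. Kl was at 0.675 FPKM in 3-month transgenic 3 and 1.36 FPKM in 3-month control 1, and listed at 0 in 10-month transgenic 1. Clic6 was at 1.65 and 0.234 FPKM in the same 2 libraries, and likewise at 0 in 10-month transgenic 1. In 10-month transgenic 2, where H2-DMa was at 0.755 FPKM, Clic6 was at 0.855 FPKM, Kl at 0.152 FPKM and Folr1 at its highest. Folr1 stayed at or below 0.182 FPKM and Otx2, highest in 10-month transgenic 3, at or below 0.0983 FPKM. Without these 3 libraries the log2 difference of H2-DMa between the ages was 0.40 in controls and -0.19 in transgenic libraries. The other 4 class II genes did not share this ranking: in 3-month control 1, with the most Ttr, H2-Aa, H2-Ab1 and H2-Eb1 were listed at 0 and Cd74 was at 0.287 FPKM. The part of choroid plexus tissue in the H2-DMa values was not tested.

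**Figure D3:**
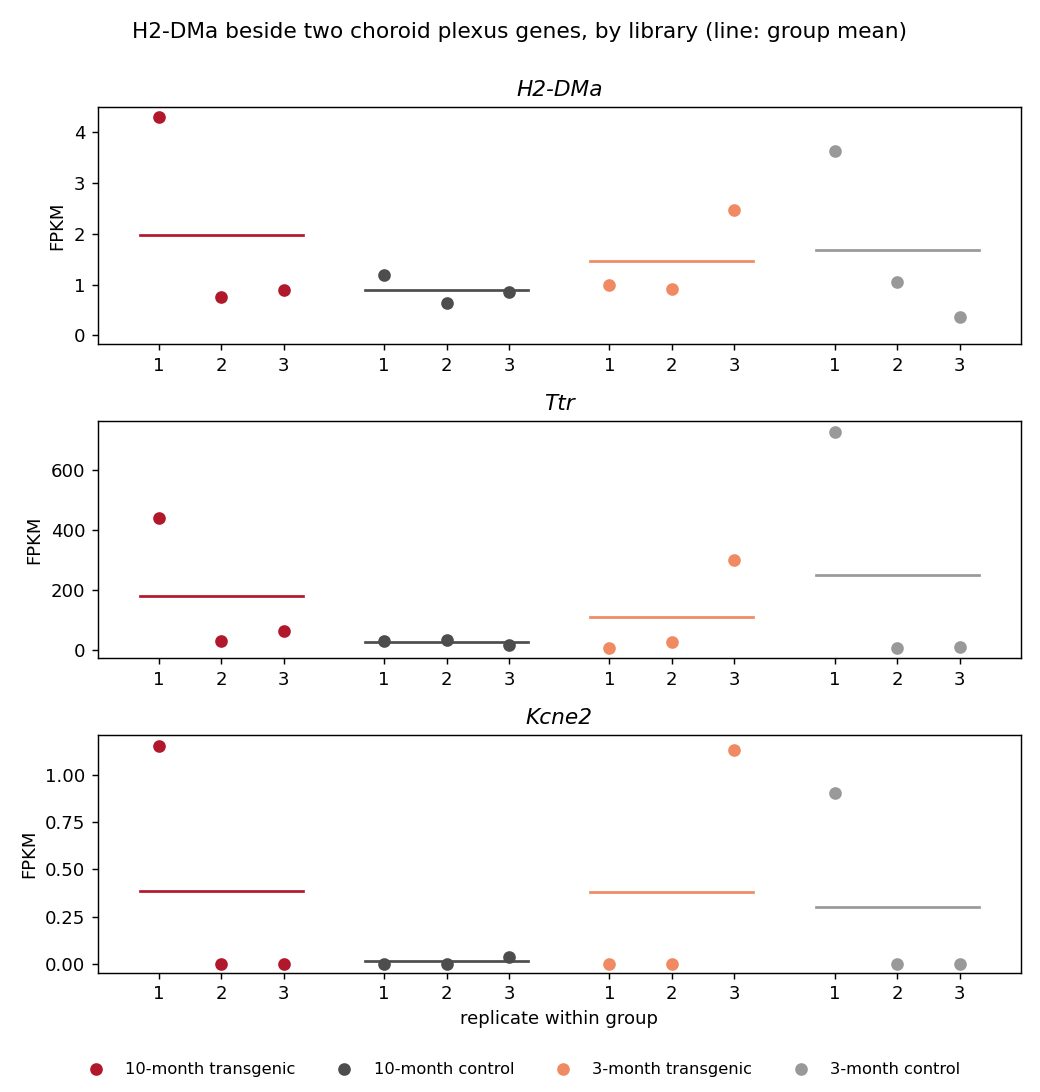
FPKM of H2-DMa and of the choroid plexus genes Ttr and Kcne2 in each of the 12 libraries, with a line at each group mean. The same 3 libraries are highest in all 3 panels: 10-month transgenic 1, 3-month transgenic 3 and 3-month control 1, at 4.30, 2.47 and 3.63 FPKM of H2-DMa. The other genes of the choroid plexus list, not shown, did not share this ranking, and Kl and Clic6 were listed at 0 in 10-month transgenic 1.

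The other class II chains were low. None of the 6 (H2-Eb2, H2-DMb1, H2-DMb2, H2-Oa, H2-Ob and the I-E alpha chain, listed as the pseudogene H2-Ea-ps) reached 1 FPKM in any library, and none could be tested. H2-Eb2 and H2-Ea-ps were listed at 0 in all 12 libraries. H2-DMb1, which encodes a partner of H2-DMa, was at 0.798, 0 and 0 FPKM in the 10-month transgenic and 0, 0.497 and 0.915 FPKM in the 10-month control libraries, and at 0 at 3 months. H2-DMa was therefore listed in 9 libraries that listed no H2-DMb1. H2-DMb2, also a beta chain gene of H2-DM, was at 0.00518 FPKM in 10-month transgenic 3 and 0.01515 FPKM in 3-month transgenic 3, and at 0 elsewhere.

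Of the 8 genes of the class II promoter machinery, 5 were tested, and 0 were called in any comparison. Ciita, the master coactivator of the family, was listed at 0 in all 12 libraries, 10-month transgenic 1 included. Nfyc, an NF-Y subunit, had the highest level of the list, at 10.2, 7.71 and 11.9 FPKM in the 10-month transgenic and 6.86, 3.03 and 6.86 FPKM in the 10-month control libraries. Nfya, the NF-Y subunit that contacts DNA, went the other way, at 0.0132, 0.0197 and 0 FPKM in the 10-month transgenic and 0.480, 2.07 and 0.813 FPKM in the 10-month control libraries. Its groups did not overlap, and its log2 fold change was -3.24 (SE 0.89, limma adjusted p = 0.969, unadjusted p = 0.00433). In that comparison 3.89% of all genes were lower in every transgenic library. The groups of Nfyc did not overlap either, in the opposite direction (log2 fold change 0.89, SE 0.35, limma adjusted p = 0.969, unadjusted p = 0.0282), as was so for 4.37% of all genes. Rfx5, a subunit of the RFX complex, stood at -1.02 (SE 1.41), with libraries at 0 in both transgenic groups. The median log2 fold change of the 5 tested genes at 10 months was -1.02, against 0.01 for all genes.

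Among the genes of peptide loading and turnover, Ctsd, which encodes the lysosomal protease cathepsin D, was at 152, 128 and 172 FPKM in the 10-month transgenic and 157, 147 and 124 FPKM in the 10-month control libraries. Of the 8, 7 were tested and 0 were called in any comparison, and their median log2 fold change at 10 months was 0.12, against 0.01 for all genes. Ctss, the cathepsin that trims the invariant chain, was at 42.2, 38.2 and 59.1 FPKM in the 10-month transgenic and 41.7, 41.0 and 38.1 FPKM in the 10-month control libraries. Its values at 3 months were 39.5, 32.3 and 32.8 FPKM in transgenic and 38.3, 29.0 and 32.6 FPKM in control libraries. Ctsb, another cathepsin, reached 283 FPKM in 10-month transgenic 3 and lay between 39.4 and 117 FPKM in all other libraries. Ifi30, a thiol reductase that opens disulphide bonds of antigens, was at 2.38, 0.945 and 2.85 FPKM in the 10-month transgenic and 0, 1.91 and 0 FPKM in the 10-month control libraries (log2 fold change 2.86, SE 1.33, limma adjusted p = 0.969). Its 10-month controls listed at 0 were the 2 in which H2-Aa and H2-Eb1 were also at 0.

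Interferon gamma is the main inducer of class II genes. Ifng was listed at 0 in all 12 libraries. Of the 11 genes of its axis, 6 were tested and 0 were called in any comparison. Jak1, the kinase bound to the receptor, was between 11.4 and 22.3 FPKM in the 12 libraries, and the receptor chain gene Ifngr1 between 3.19 and 4.91 FPKM. Irf1, a target of this pathway, was at 1.95, 0 and 1.10 FPKM in the 10-month transgenic and 0, 1.15 and 0.189 FPKM in the 10-month control libraries, the same order of libraries as Cd74. At 3 months it was at 0.109, 0.325 and 0.0304 FPKM in transgenic and 1.11, 1.07 and 0 FPKM in control libraries, where Cd74 was at most 0.900 FPKM. Of the 7 genes of T cell contact, Cd4, Cd80, Cd40 and Cd274 were listed at 0 everywhere, and Lag3, which binds class II, was at 2.40 to 4.81 FPKM.

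Markers of the cells that could carry class II RNA were set beside these values. The 6 B cell markers were listed at 0 in every library. Of 8 dendritic cell markers, Itgax, Clec9a, Xcr1 and Cd209a were at 0 throughout, and the summed level of the list ran from 0.936 to 1.74 FPKM in 10-month transgenic, 0.822 to 1.05 in 10-month control, 0.765 to 1.18 in 3-month transgenic and 0.249 to 0.537 FPKM in 3-month control libraries. Of 8 markers of border macrophages, Cd163, Lyve1, F13a1 and Ms4a7 were at 0 throughout, and the sums in the same order of groups were 0.552 to 1.09, 0.309 to 0.730, 0.156 to 0.902 and 0.643 to 0.933 FPKM. Of 6 T cell markers, Cd3e, Cd3d and Cd8a were at 0 throughout, and the highest sum was 1.28 FPKM. Of the 14 microglia markers, 13 were above 0 in 10-month transgenic, 14 in 10-month control, 14 in 3-month transgenic and 13 in 3-month control libraries. Itgam was at 0 in all 10-month transgenic and Sall1 in all 3-month control libraries. In the same order of groups the list had sums of 102 to 152, 111 to 162, 118 to 176 and 140 to 158 FPKM. In 10-month transgenic 1 the microglia sum was 152 FPKM, within the range of the other libraries (102 to 176). Its class II sum was 24.3 FPKM, against at most 6.04 FPKM elsewhere. In 10-month transgenic 3 and control 2, next in class II sum (5.68 and 6.04 FPKM), the microglia sums were 150.3 and 162 FPKM. The remaining 10-month libraries had lower microglia sums, at 102 (transgenic 2), 125 (control 1) and 111 FPKM (control 3). Part of this difference lay in C1qb of the list, at 37.7 FPKM in transgenic 1 and 43.7 FPKM in control 2. C1qb was at 8.21 FPKM in transgenic 3, and at 3.99 (transgenic 2), 8.23 (control 1) and 6.01 FPKM (control 3). At 3 months, microglia sums of 118 to 176 FPKM went with class II sums of at most 3.92 FPKM. This relation was not tested. Excitatory neuron markers, which check the labelled tissue, summed to between 215 and 705 FPKM.

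Marker genes of other tissues were also high in the library with the most class II RNA. The 13 pituitary markers summed to 13790 FPKM in 10-month transgenic 1 and to at most 231 FPKM in any other library, and only Lhx3 of them was at 0 everywhere. Pou1f1, the transcription factor of hormone-producing pituitary cells, was at 2.21 FPKM there and listed at 0 in the other 11. The choroid plexus list summed to 440.4 FPKM there, of which Ttr alone was 439 FPKM. That list also summed to 730.3 FPKM in 3-month control 1 and 303.9 FPKM in 3-month transgenic 3, in which H2-Aa and H2-Eb1 were listed at 0. The meninges list, of which Col1a1 and Col3a1 were at 0 everywhere, summed to 16.4 FPKM in 10-month transgenic 1, the highest of the 12. Blood genes summed to 72.3 FPKM there, below 142 and 83.3 FPKM in 3-month transgenic 2 and 3, in which H2-Aa and H2-Eb1 were listed at 0. The part of these tissues in the class II values of that library was not tested. In 10-month control 2, the library with the next highest class II sum (6.04 FPKM), Gh was at 6.40 FPKM, Ttr at 32.1 FPKM and the meninges list at 10.9 FPKM.

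**Figure D4:**
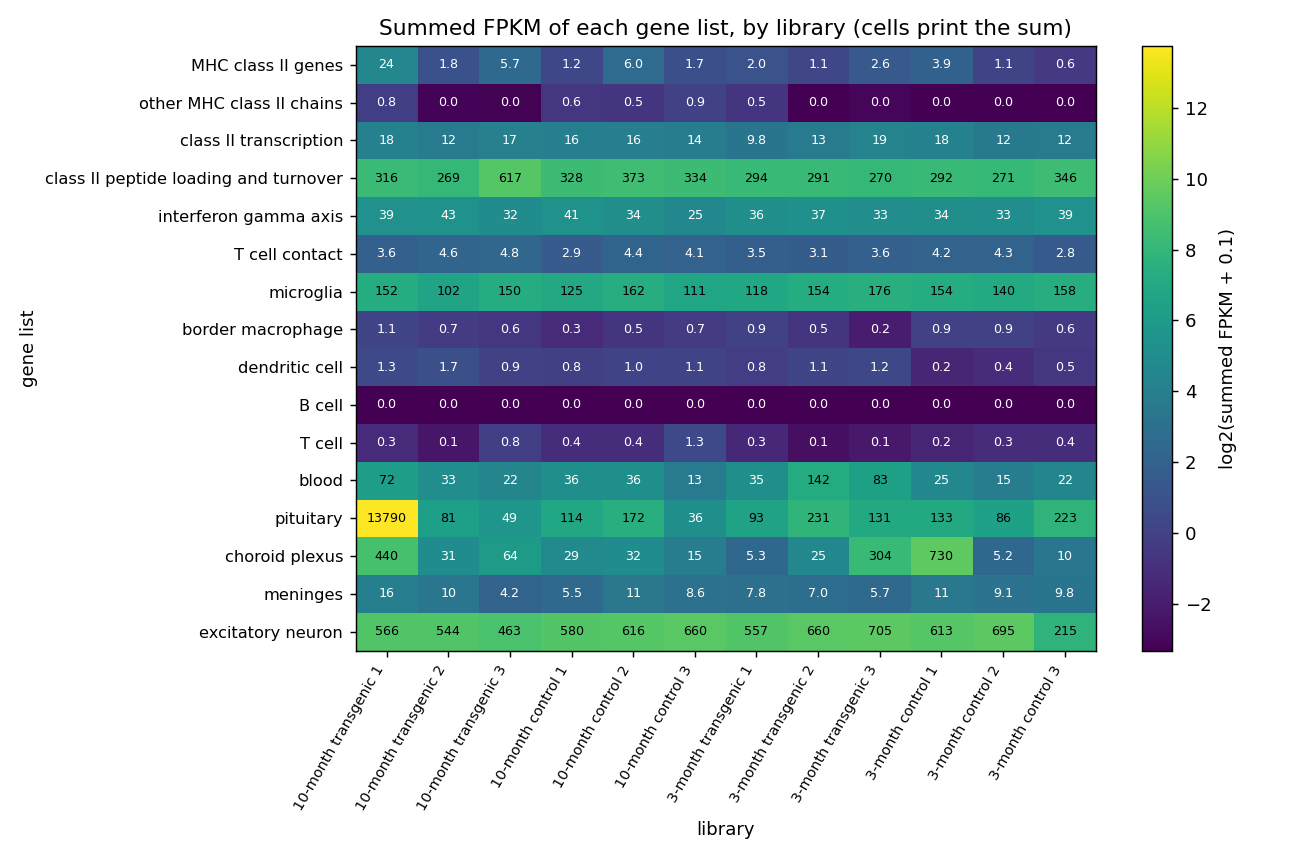
Summed FPKM of each gene list (rows) in each library (columns), coloured by log2(sum + 0.1), with the sum printed in each cell. The class II row peaks at 24.3 FPKM in 10-month transgenic 1, where the pituitary row also peaks at 13790 FPKM, while the B cell row is at 0 throughout and the microglia row stays between 102 and 176 FPKM.

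The genes whose pattern was most like the mean of the 5 standardised log2 levels were picked among 8842 candidates that were above 0 in at least 6 libraries. The closest was Mfsd7b (Pearson r = 0.928 over 12 libraries, 0.884 over the 11 without 10-month transgenic 1). Mfsd7b was at 2.13, 0.378 and 0.769 FPKM in the 10-month transgenic and 0.262, 0.916 and 0.367 FPKM in the 10-month control libraries. The next were Tmem176a (0.856, and 0.707 without that library), Txnip (0.852 and 0.514), Arhgef4 (0.850 and 0.536), Srebf1 (0.847 and 0.813), Ggh (0.837 and 0.643), Chst14 (0.835 and 0.598) and Zfyve21 (0.826 and 0.897). Srebf1, a transcription factor of lipid synthesis, was at 8.25, 1.72 and 4.57 FPKM in the 10-month transgenic and 1.69, 5.67 and 2.86 FPKM in the 10-month control libraries, with 10-month transgenic 1 again highest and 10-month control 2 next. Zfyve21 alone of the 8 had a closer match without that library than with it. These r describe likeness over libraries of which 1 stands apart, and no test was attached to them.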

How the data were processed

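Groups, ages and replicate numbers came from the sample labels; the design text calls the replicates biological and does not say more. The authors deposited a table for each age with the FPKM of every gene. Per the submitters' processing notes HISAT2 2.0.4, StringTie 1.3.0, SAMtools and R 3.4.2 were used with builds mm10 and GRCm38; the sources used here give no step order, options or annotation. The authors' tables also hold a fold change (a ratio) and its log2, and a p-value and q-value from a test that the file headers do not name. All FPKM columns were mapped to a sample. Both tables entered 1 fit, on the untested assumption that neither was scaled within itself.

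Values were analysed as log2(FPKM + 0.1), which understates changes of low genes. A gene whose mean reached 1 FPKM in any of the 4 groups was tested with limma 3.58.1 in R 4.3.3, with a mean per group over all 12 libraries and eBayes with trend and robust. Benjamini-Hochberg adjustment ran over all genes tested, with a threshold of 0.05. The fit was checked on simulated data. Single members were also compared with exact two-sided permutation tests. Alternatives were a pseudocount of 1, no filter beyond a value above 0 in 3 libraries, the replicate number as a block, quantile normalization, only the groups compared, and leaving out each library in turn.

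The members and the 16 gene lists (123 genes, all matched by name) were chosen with earlier results of these data known. Named from each list were up to 4 genes by highest mean FPKM and any gene called, plus up to 8 genes most like the members, passing over predicted genes. Other genes, among them Ciita, Nfya, Ifi30, Irf1, Ifng, Brd2, Pou1f1, H2-DMb1, Folr1, Otx2, Itgam, Sall1, Aif1, Cx3cr1, Tmem119 and the markers listed at 0, were named after their values were seen. The comparison of ages over both labels, and the fits without 10-month transgenic 1 or without the 3 libraries above 300 FPKM of Ttr with the tested genes held, were added after the data were seen.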

Additional observations from a re-analysis of the deposited data

How the results depend on the processing

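None of the 5 class II genes was called in any comparison under any alternative run. With the replicate number as a block 0 of the 5 were called in each comparison, and the block changed no other call among them. The numbers did not pair the libraries: deviations from the group means of same-numbered libraries correlated between -0.123 and 0.0939 (18 pairs), against -0.135 to 0.151 for other numbers, and 2 of 12 libraries correlated best with their own number. Without 10-month transgenic 1 and with the filter recomputed, H2-DMa alone of the 5 could still be tested.

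Signs of H2-DMa and Cd74 were not stable, and the cause was not tested. Over the fits that left out a library, the log2 fold change of H2-DMa ranged from -0.075 to 1.11 for genotype at 10 months, from -0.55 to 0.94 at 3 months, from -0.27 to 1.23 for the interaction, from -0.62 to 0.56 for age in transgenic, from -1.09 to 0.40 for age in control libraries and from -0.50 to 0.27 for age over both labels. That of Cd74 ranged from -0.12 to 2.77, from -0.60 to 1.06 and from -0.41 to 2.48 for the first 3 of these. Age in controls ranged from 0 to 1.77 for H2-Aa and from 0 to 2.18 for H2-Eb1, both at 0 without 10-month control 2, the one control that listed them. With the tested genes held, leaving out 10-month transgenic 1 gave -0.075 for H2-DMa and -0.32 for Cd74 (genotype at 10 months), -0.24 and -0.61 (interaction), and -0.62 for H2-DMa (age in transgenic). Without the 3 libraries high in Ttr the values were -0.075 and -0.32, -0.59 and -1.74, and -0.19 and -0.26 for the same comparisons, 0.40 for H2-DMa with age in controls and 0.11 over both labels.

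Over all genes, the calls for genotype at 10 months (1) were 2 without the filter, 0 with the block, 0 with only the groups compared, 4 without 10-month transgenic 1 or without the libraries high in Ttr (tested genes held), and 0 to 8 over the libraries left out. Those at 3 months (4) were 9 without the filter, 12 with only the groups compared, 10 without the libraries high in Ttr, and 4 to 12. The interaction (5) gave 9 without the filter, 1 with the block, 3 without the libraries high in Ttr, and 2 to 11. Age in transgenic (2) gave 7 without the filter, 5 without 10-month transgenic 1 (tested genes held), 9 without the libraries high in Ttr, and 2 to 13. Age in control (3) gave 7 without the filter, 5 with only the groups compared, and 3 to 10. Age over both labels (8) gave 2 with the block and 2 to 14. The unknown depth limits all values under 1 FPKM.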

Other observations

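Of the 14 microglia markers, Cx3cr1 and Tmem119 were near 0 in some libraries and at several FPKM in the rest. Cx3cr1, a chemokine receptor of microglia, was at 7.01, 7.55 and 0.0442 FPKM in the 10-month transgenic and 5.84, 0.0640 and 7.78 FPKM in the 10-month control libraries. At 3 months it was at 0.0683, 7.56 and 9.74 FPKM in transgenic and 12.0, 11.6 and 0.0913 FPKM in control libraries. Tmem119, another microglia marker, was at 0.187, 6.81 and 11.4 FPKM in the 10-month transgenic and 7.96, 0.293 and 7.85 FPKM in the 10-month control libraries. At 3 months it was at 9.72, 7.62 and 8.30 FPKM in transgenic and 0.362, 7.85 and 9.90 FPKM in control libraries. At 10 months, the libraries with either gene near 0 were transgenic 1, transgenic 3 and control 2, which had the 3 highest class II sums (24.3, 5.68 and 6.04 FPKM). At 3 months they were transgenic 1, control 1 and control 3, with class II sums of 1.99, 3.92 and 0.613 FPKM, against 1.12, 2.59 and 1.05 FPKM in transgenic 2, transgenic 3 and control 2. The 2 genes were picked after the values were seen, and their relation to class II sums was not tested. Other markers of the list divided the 10-month libraries otherwise. Among these libraries, Aif1 was lowest in control 1 (0.0997 FPKM) and C1qb in transgenic 2 (3.99 FPKM). Sall1 was listed only in transgenic 2 and control 2, at 1.74 and 4.01 FPKM.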
